A study of Mus musculus with 7 samples.

Results

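The pericyte and mural identity genes are 10 genes by which the cells on the outer wall of capillaries and small vessels are usually recognised. They were taken by name as a listed set (*Kcnj8*, *Abcc9*, *Rgs5*, *Pdgfrb*, *Cspg4*, *Notch3*, *Higd1b*, *Vtn*, *Mcam* and *Anpep*), and all 10 were found among the 20927 genes of the count table and among the 13894 genes tested. Pericytes sit on capillaries within the basement membrane and are recruited by PDGF-B from the endothelium, while vascular smooth muscle cells wrap arterioles and arteries and carry a contractile apparatus of smooth muscle myosin and actin. Both belong to the mural lineage and share many transcripts, and pericytes are abundant in the dense capillary bed of the ventricular wall. Their contractile genes, such as *Myh11*, are largely those of smooth muscle cells, so that identity genes and contractile genes can be read side by side in the same hearts.

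RNA was sequenced from powdered left ventricular tissue, with 1 library per mouse, for 3 WT mice and 4 mice homozygous for A178D. The labels give the strain as C57BL/6J for both groups and name no treatment, and neither age nor sex of these mice is given in the sources used here. A178D is a missense change in the Z-disc part of titin, introduced by gene editing in C57BL/6N embryonic stem cells and bred onto C57BL/6J before littermates were compared. As a germline allele it is carried by all cells, those of the vessel wall included. The paper describes titin expression as specific to striated muscle, and whether vessel wall cells express it was not tested. Libraries held between 33080675 and 54245530 counts, the lowest in A178D replicate 4. All 7 expressed Y-linked genes (*Ddx3y* from 75.2 to 119 CPM, the count scaled to library size by TMM). Cardiomyocyte genes dominated every library, with *Actc1* at 9007 CPM per kilobase of exon. The edited gene itself, *Ttn*, was at 7245, 6247 and 6486 CPM in WT and at 5361, 6173, 6490 and 4087 CPM in A178D hearts, which overlapped (log2 fold change −0.27 ± 0.12, here and below with the standard error of edgeR's model, adjusted p = 0.287). This value was −0.15 without A178D replicate 4 and −0.13 with offsets for transcript length and GC content in each library.

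One library stood apart before any comparison. In A178D replicate 4, log2 CPM fell by 0.136 for each doubling of transcript length relative to the mean of the 7 libraries, and in WT replicate 1 it rose by 0.08, while the slopes of the other 5 lay between −0.014 and 0.025. Long transcripts (6000 bases or more) stood at a median of −0.216 log2 units from the mean of the libraries in A178D replicate 4, over 2042 genes. Long genes among the 10 include *Abcc9*, *Cspg4* and *Notch3*. Libraries also differed by GC content. For each 10% of GC, log2 CPM rose by 0.151 in A178D replicate 4 and fell by 0.086 in WT replicate 4 and by 0.063 in A178D replicate 1. The slopes of the others lay between −0.021 and 0.026.

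Of the 10 identity genes, edgeR's quasi-likelihood test called 0 at an adjusted p under 0.05, against 2.35% of all genes tested in either direction and 1.31% called lower. All 10 log2 fold changes (A178D over WT) lay under 0, where 49.5% of all genes tested did, and their median was −0.21 against 0.0023 over all genes tested. At an unadjusted p under 0.05, 5 of the 10 were lower, against 8.81% of all genes. These 10 genes were measured in the same 7 hearts and are not independent readings of the difference. They were also chosen with earlier results of these data known, so that the comparison with all genes is a description and no test. With DESeq2's Wald test 3 of the 10 were called lower (*Rgs5*, *Pdgfrb* and *Notch3*), against 2.85% of all genes with an adjusted p called lower and 5.06% called in either direction. With offsets for the dependence of counts on transcript length and GC in every library, edgeR called 3 (*Rgs5*, *Pdgfrb* and *Vtn*), all lower, against 2.04% of all genes called lower and 3.51% in either direction. Limma-voom called 0. Every A178D heart lay under every WT heart in 1 of the 10, against 8.52% of all genes tested. In a bulk tissue, fewer cells of a type and less RNA per cell cannot be told apart.

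**Figure D1:**
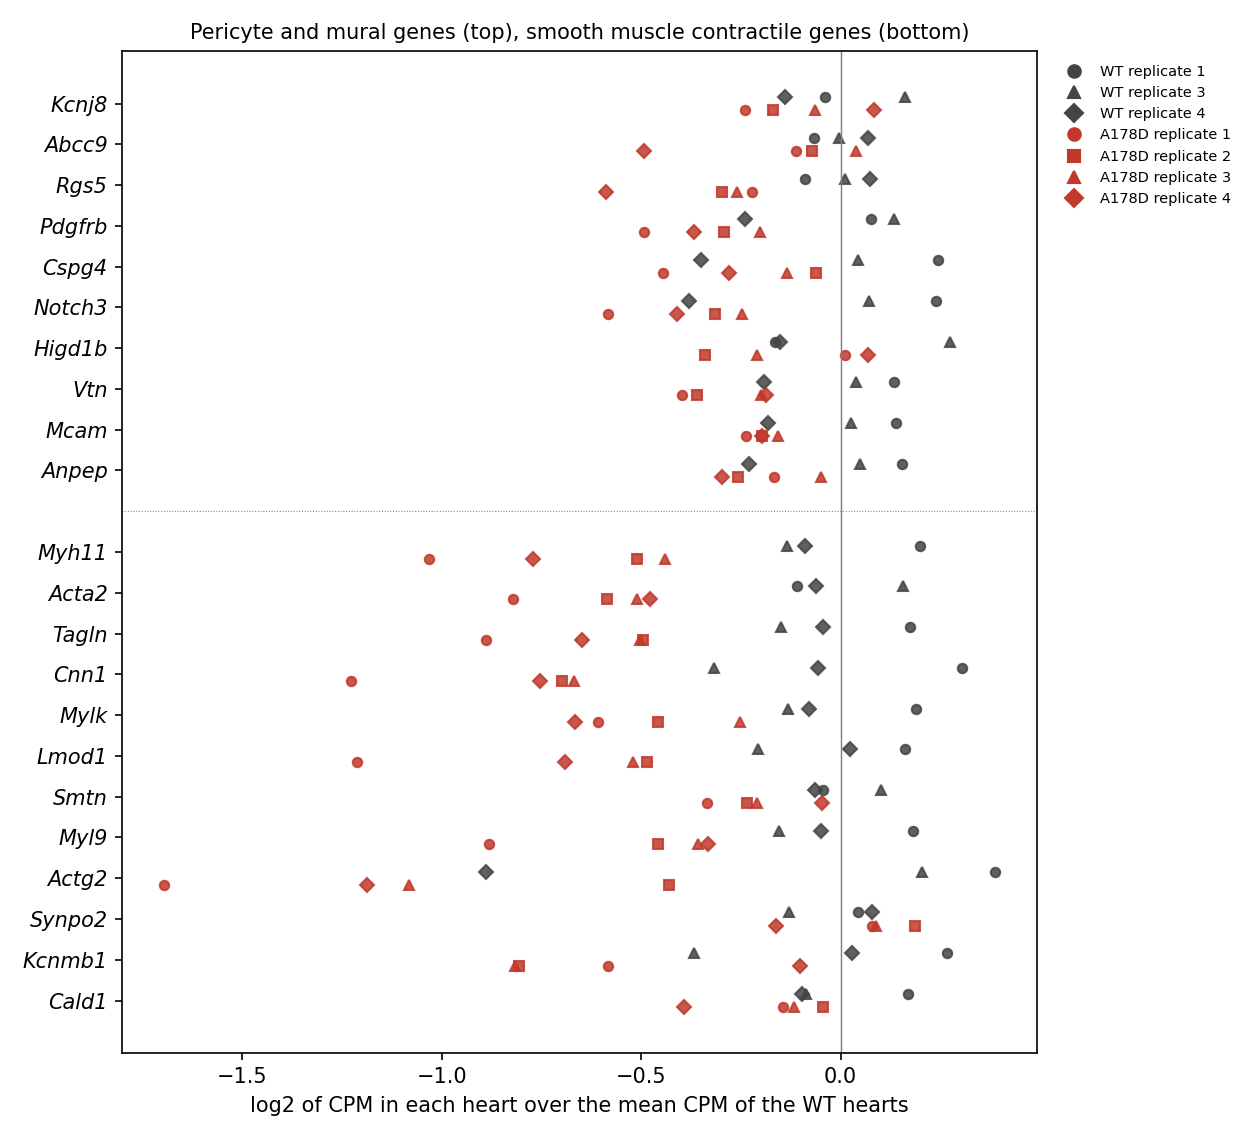
Log2 of the CPM in each heart over the mean CPM of the WT hearts, for the 10 pericyte and mural genes (top) and 12 smooth muscle contractile genes (bottom). Grey marks are WT hearts and red marks A178D hearts, with 1 shape per replicate number. *Rgs5* is the identity gene whose groups do not overlap, while 7 of the contractile genes have no overlap. Of all genes tested, 8.52% had every A178D heart under every WT heart.

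*Kcnj8* and *Abcc9* encode the pore (Kir6.1) and the regulatory subunit (SUR2) of the ATP-sensitive potassium channel of mural cells, which couples metabolism to vessel tone. They lie side by side on chromosome 6 (GRCm38), *Kcnj8* (ENSMUSG00000030247) from 142564837 to 142571614 and *Abcc9* (ENSMUSG00000030249) from 142587862 to 142702315, both on the minus strand with 16247 bases between them. *Kcnj8* was at 49.4, 56.8 and 46.1 CPM in WT and at 43.0, 45.1, 48.6 and 53.8 CPM in A178D hearts. The genotypes overlapped across most of their range, and A178D replicate 4 was above 2 of the WT hearts. For *Kcnj8* this was a log2 fold change of −0.09 ± 0.09 (adjusted p = 0.66), and leaving out WT replicate 3 gave −0.005. It came to −0.16 if either WT replicate 4 or A178D replicate 4 was left out, and to −0.05 for A178D replicate 1. *Abcc9* was at 572, 598 and 628 CPM in WT and at 555, 571, 616 and 426 CPM in A178D hearts. Only A178D replicate 4 was far below the WT range, and the other 3 A178D hearts overlapped with it or lay just under it. Its log2 fold change was −0.15 ± 0.10 (adjusted p = 0.513) with all hearts, −0.05 without A178D replicate 4 and −0.07 with the length and GC offsets. *Abcc9* is known to be expressed by cardiomyocytes too, together with *Kcnj11* (Kir6.2). *Kcnj11* reached 65.2 CPM per kilobase against 67.7 for *Abcc9* and 19.2 for *Kcnj8*. Which cells the *Abcc9* counts came from was not tested. Over all 4 subunits of these channels, including *Abcc8* (SUR1), edgeR, DESeq2 and limma-voom each called 0, and the median log2 fold change was −0.12. In edgeR 1 of the 4 was lower at an unadjusted p under 0.05, against 8.81% of all genes tested.

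*Rgs5* and *Higd1b* are among the transcripts most specific to pericytes in many tissues. *Rgs5* (ENSMUSG00000026678, chromosome 1 from 169655501 to 169695813, plus strand) encodes a regulator of G protein signalling that shortens the response to vasoconstrictor receptors. It was at 138, 148 and 155 CPM in WT and at 126, 119.8, 123 and 97.9 CPM in A178D hearts. All 4 A178D hearts were under the lowest WT heart, WT replicate 1, with A178D replicate 4 lowest of all. The level in A178D hearts was 116.7 ± 12.8 CPM (SD, n = 4) against 147 ± 8.39 CPM (SD, n = 3), or 79.3% of WT, with a log2 fold change of −0.33 ± 0.09 (adjusted p = 0.0653 with edgeR). DESeq2 gave an adjusted p of 0.0127 and the length and GC offsets 0.0156, and over the 7 fits without 1 heart edgeR's adjusted p lay between 0.0495 without A178D replicate 4, where *Rgs5* was called, and 0.226 without WT replicate 4. *Higd1b* (ENSMUSG00000020928), a small mitochondrial membrane protein of the HIG1 family, was at 7.32, 9.92 and 7.38 CPM in WT and at 8.28, 6.49, 7.10 and 8.62 CPM in A178D hearts. WT replicate 3 was the highest, and 2 A178D hearts were above the other 2 WT hearts. Its log2 fold change of −0.11 ± 0.15 (adjusted p = 0.747) was 0.05 without WT replicate 3, −0.04 without A178D replicate 2 and −0.19 to −0.08 without each of the other 5 hearts. With the length and GC offsets it was −0.26, and with the replicate number as a block −0.03.

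The growth factor receptor of these cells, *Pdgfrb* (ENSMUSG00000024620, chromosome 18 from 61045150 to 61085061), is needed for pericyte recruitment and was at 136, 141 and 109 CPM in WT and at 91.5, 105, 112 and 99.8 CPM in A178D hearts. WT replicates 1 and 3 were above all A178D hearts, and WT replicate 4 lay among them. *Pdgfrb* had a log2 fold change of −0.33 ± 0.09 (adjusted p = 0.0863 with edgeR). DESeq2 called it with an adjusted p of 0.0261, the length and GC offsets with 0.0454, and edgeR without WT replicate 4 with 0.0493, while without the other hearts the adjusted p lay between 0.0933 and 0.325. *Cspg4* (ENSMUSG00000032911), the NG2 proteoglycan that binds PDGF and collagen, was at 60.4, 52.5 and 39.9 CPM in WT and at 37.4, 48.8, 46.4 and 42.0 CPM in A178D hearts. WT replicate 4 lay among the A178D hearts here too, and the log2 fold change was −0.22 ± 0.12 (adjusted p = 0.396). Leaving out WT replicate 1 gave −0.08 and leaving out WT replicate 4 gave −0.37, against −0.13 with the length and GC offsets. Of the 6 ligands and receptors of the PDGF family, edgeR and limma-voom called 0 and DESeq2 called *Pdgfrb*. Besides *Pdgfrb* none had an unadjusted p under 0.05. The median log2 fold change was −0.07, and the endothelial ligand *Pdgfb*, the next most abundant per kilobase (14.1 CPM per kilobase), was at 59.5 ± 7.03 CPM (SD, n = 3) in WT and at 57.8 ± 7.03 CPM (SD, n = 4) in A178D hearts. *Pdgfra*, the receptor of fibroblasts, had a log2 fold change of −0.06 ± 0.10.

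*Notch3* (ENSMUSG00000038146, chromosome 17 from 32120820 to 32166852) encodes the Notch receptor of mural cells, which holds arterial smooth muscle in its mature state. It was at 113, 100.3 and 73.4 CPM in WT and at 63.8, 76.8, 80.5 and 71.9 CPM in A178D hearts. WT replicates 1 and 3 were above every A178D heart and WT replicate 4 lay among them, the same order of WT hearts as in *Cspg4*. With a log2 fold change of −0.38 ± 0.12, *Notch3* had an adjusted p of 0.127 with edgeR, 0.047 with DESeq2 and 0.102 with the length and GC offsets. Of the 7 edgeR fits without 1 heart, that without WT replicate 4 called it (0.0403) and the other 6 did not, with adjusted p from 0.146 to 0.35, the highest without WT replicate 1, where the log2 fold change was −0.24. Across the 14 Notch ligands, receptors and targets, edgeR and limma-voom called 0 and DESeq2 called 4 lower (*Notch1*, *Notch3*, *Notch4* and *Hey2*), against 2.85% of all genes. At an unadjusted p under 0.05 in edgeR, 6 were lower, against 8.81% of all genes tested, and 1 was higher. The median log2 fold change was −0.13. The 4 receptors all had a log2 fold change under 0, from −0.29 to −0.38, with *Notch1* (−0.33), *Notch2* (−0.32) and *Notch4* (−0.29), which were named after their values were seen, free of overlap between the genotypes. Every A178D heart lay under every WT heart in 8.52% of all genes tested. *Notch4* had an adjusted p of 0.103 with all hearts. It was called without A178D replicate 4 (0.0444) and not in the other 6 such fits (0.11 to 0.387, the highest without WT replicate 3). The 4 receptors have long transcripts, and with the length and GC offsets 0 of them were called: the log2 fold change was −0.23 for *Notch1* (adjusted p = 0.0505), −0.22 for *Notch2* (0.102), −0.29 for *Notch3* (0.102) and −0.22 for *Notch4* (0.168). Among the targets, *Hes1* was at 19.9 ± 3.51 CPM (SD, n = 3) in WT and 25.4 ± 0.667 CPM (SD, n = 4) in A178D hearts. Its log2 fold change was 0.35 (adjusted p = 0.112), and 0.25 with the offsets (0.251). *Hes1* was called without WT replicate 1 (0.00936) and in 0 of the other 6 such fits (0.133 to 0.368). *Hey2*, also named after its values were seen, was at −0.55 with an adjusted p of 0.05004. It was the 1 gene of the 14 called with the offsets (0.031), and was called in 0 of the 7 fits without 1 heart. The targets *Hey1* (−0.09), *Heyl* (−0.07) and *Nrarp* (0.005) lay near 0, and each changed sign with single hearts left out. Whether the targets differed as a group was not tested. *Dll4*, a Notch ligand of endothelial cells, was at −0.09 ± 0.09, and at −0.007 if WT replicate 1 was left out or −0.17 if WT replicate 4 was.

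*Vtn* encodes vitronectin, an adhesive matrix protein that pericytes make, and *Mcam* (CD146) and *Anpep* (aminopeptidase N, CD13) encode surface proteins of mural cells, *Mcam* also of endothelium. *Vtn* (ENSMUSG00000017344) was at 39.6, 37.0 and 31.6 CPM in WT and at 27.4, 28.1, 31.4 and 31.7 CPM in A178D hearts. The groups met at a single pair, since A178D replicate 4 lay just above WT replicate 4. For *Vtn* the log2 fold change was −0.28 ± 0.09 (adjusted p = 0.142 with edgeR and 0.0358 with the length and GC offsets). *Mcam* (ENSMUSG00000032135) was at 75.1, 69.5 and 60.2 CPM in WT and at 57.9, 59.5, 61.2 and 59.5 CPM in A178D hearts. A178D hearts lay close to one another (59.5 ± 1.34 CPM, SD, n = 4), and WT replicate 4 was at their level. The difference was −0.20 ± 0.08 on the log2 scale (adjusted p = 0.233), and −0.12 without WT replicate 1. *Anpep* (ENSMUSG00000039062) was at 18.1, 16.8 and 13.9 CPM in WT and at 14.5, 13.6, 15.7 and 13.2 CPM in A178D hearts. It had a log2 fold change of −0.19 ± 0.11 (adjusted p = 0.417), again with WT replicate 4 among the A178D hearts. Without WT replicate 1 it was −0.10 and without WT replicate 4 −0.29.

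The order of the WT hearts differed between genes. WT replicate 4 was the lowest WT heart for 7 of the 10 genes and the highest for 2, *Abcc9* and *Rgs5*. Transcripts of *Rgs5* (41.1% GC) and *Abcc9* (46.2%) have the lowest GC content of the 10, and the others range from 52.4% (*Higd1b*) to 59.6% (*Notch3*). The part of GC content in this order was not tested. WT replicate 1 was the highest WT heart for 5 genes and the lowest for 3, and A178D replicate 1 was the lowest of the A178D hearts for 6. As the mean deviation of log2 CPM from the 7-heart mean, taken over the 10 genes, the hearts stood at 0.20, 0.22 and −0.03 in WT and at −0.15, −0.10, −0.01 and −0.13 in A178D. WT replicate 4 thus lay between the A178D hearts, under A178D replicate 3 and above the others. Among the genes outside all lists, the 5 whose log2 CPM followed this mean most closely over the 7 hearts included *Mfsd2b* (Pearson r 0.992), *Pias3* (0.977), *Arap3* (0.976) and *Agap1* (0.973), given as a description that includes the difference between genotypes. Among the 10 genes *Pdgfrb* followed it most closely (0.985), and *Higd1b* (0.302) and *Abcc9* (0.407) least.

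On the scale of CPM per kilobase of annotated exon, *Abcc9* had the highest level of the 10, 67.7 as a mean over the 7 hearts, followed by *Rgs5* (28.5), *Pdgfrb* (20.7), *Kcnj8* (19.2), *Mcam* (18.9), *Vtn* (15.96), *Notch3* (10.2), *Higd1b* (9.30), *Cspg4* (3.92) and *Anpep* (3.66). Both *Abcc9* over *Rgs5* and *Rgs5* over *Pdgfrb* held in all 7 hearts. By contrast *Pdgfrb* was above *Kcnj8* in 5 hearts, *Kcnj8* above *Mcam* in 4, *Notch3* above *Higd1b* in 5 and *Cspg4* above *Anpep* in 5, so that these neighbours did not separate in all hearts on this scale. The order depends on the length used. *Cspg4* has 11931 bases of annotated exon and a longest transcript of 8121, against 4135 and 3797 for *Anpep*. The order by transcript length was not determined. Between 279 and 32584 counts stood behind each value in each library.

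The identity genes were compared with smooth muscle contractile genes. Of 12 contractile genes, all tested, edgeR called 7 lower and 0 higher, against 1.31% of all genes called lower. DESeq2 and limma-voom also called 7. The length and GC offsets called 8, and edgeR with DESeq2's size factors called 6, without *Myl9* (log2 fold change −0.491, adjusted p = 0.0507). At an unadjusted p under 0.05 in edgeR, 10 were lower, against 8.81% of all genes tested. In 7 of the 12 every A178D heart was under every WT heart, against 8.52% of all genes tested. The median log2 fold change of the 12 was −0.57. These genes were measured in the same hearts, and the list was chosen with earlier results of these data known. The mean deviation of the contractile genes minus that of the identity genes was 0.27, −0.006 and 0.24 (log2) in WT and −0.31, −0.005, −0.12 and −0.07 in A178D hearts. The groups met at WT replicate 3 and A178D replicate 2, which had nearly the same value, and this difference between the lists was not tested. *Myh11* (ENSMUSG00000018830, chromosome 16 from 14194535 to 14291372, minus strand), the smooth muscle myosin heavy chain, was at 168, 134 and 138 CPM in WT and at 71.8, 102.9, 108 and 86.0 CPM in A178D hearts. All A178D hearts were under all WT hearts, with A178D replicate 1 lowest and WT replicate 1 highest. It fell by 0.67 ± 0.12 on the log2 scale (adjusted p = 0.0146), to 62.9% of the WT mean. This call was lost without WT replicate 3 (log2 fold change −0.73, adjusted p = 0.0501) or WT replicate 4 (−0.71, 0.0547) and kept without each of the other 5 hearts.

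Other called genes were *Acta2*, smooth muscle alpha-actin (log2 fold change −0.59), *Tagln*, the actin-binding transgelin (−0.62), *Cnn1*, calponin (−0.82), *Mylk*, myosin light chain kinase (−0.49), *Lmod1*, the actin nucleator leiomodin (−0.70), and *Myl9*, a regulatory light chain (−0.49, adjusted p = 0.0494). *Acta2* and *Tagln* were called in all 7 fits without 1 heart. The number called was 3 without WT replicate 1, 2 without WT replicate 3, 2 without WT replicate 4, 3 without A178D replicate 1, 4 without A178D replicate 2, 4 without A178D replicate 3 and 6 without A178D replicate 4. Not called by edgeR were *Smtn*, smoothelin (−0.20, called with the offsets at an adjusted p of 0.0469), *Cald1*, caldesmon (−0.17, and −0.07 without WT replicate 1 or −0.10 without A178D replicate 4), *Kcnmb1*, a potassium channel subunit (−0.56), *Actg2*, the enteric actin (−1.02 at 0.768 CPM per kilobase), and *Synpo2*, which cardiomyocytes also express (0.05, and −0.01 without WT replicate 3). Exons of *Tagln* share 108 bases with *Pcsk7* on the opposite strand, and the strand setting of the counting is not given in the sources used here.

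**Figure D2:**
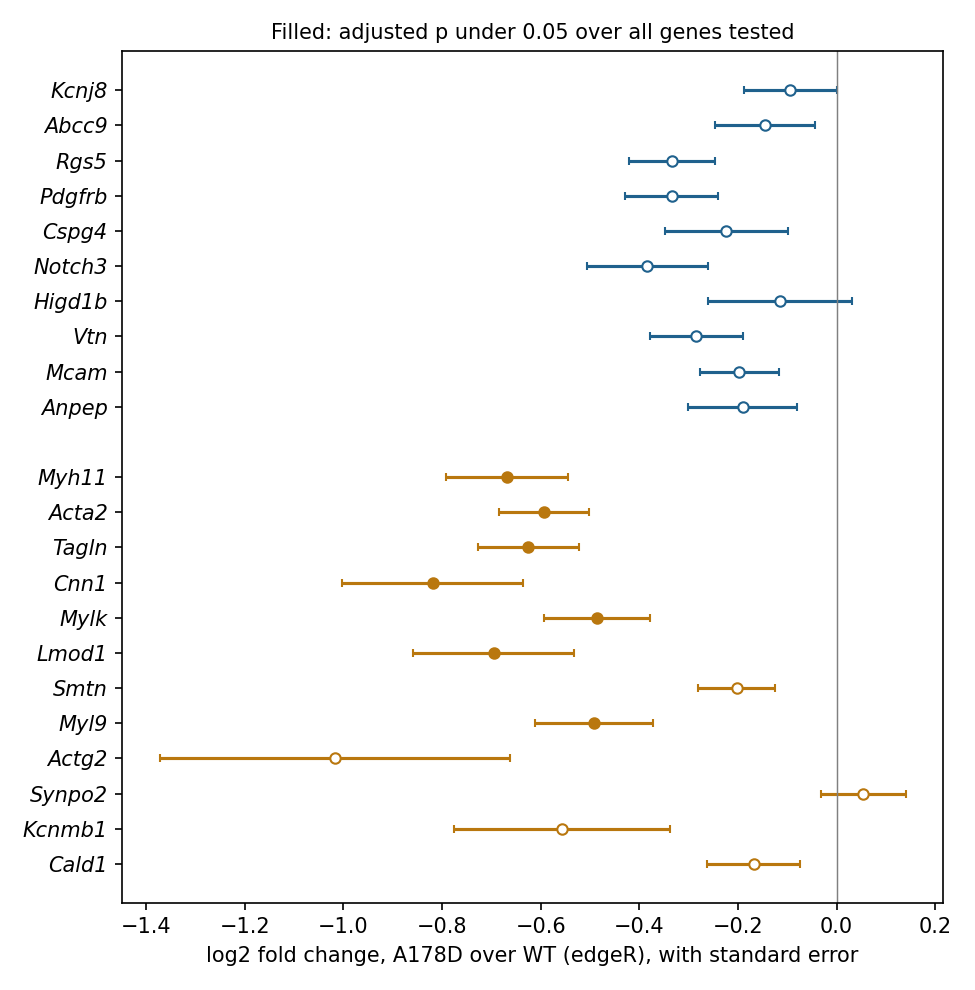
Log2 fold changes of A178D over WT hearts with their standard errors from edgeR, for the 10 pericyte and mural genes (blue) and the 12 smooth muscle contractile genes (orange). Filled points have an adjusted p under 0.05 over all genes tested: 0 of the 10 in the upper block and 7 of the 12 in the lower block. Of all genes tested, 2.35% were called.

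Whether *Myh11* and an identity gene differed by the same amount was tested on their ratio in each heart, which takes out what both genes share. It does not take out a dependence of counts on transcript length or GC content where the genes differ in these. The longest transcript of *Myh11* has 6549 bases, and those of the 10 genes range from 735 (*Higd1b*) to 8121 (*Cspg4*). The ratios used CPM without the length and GC offsets, with which the log2 fold change of *Myh11* was −0.61. *Myh11* was known to be lower, so that the direction of these ratios is no independent evidence. The log2 ratio of *Myh11* to each of the 10 genes was lower in A178D than in WT hearts on average, with differences from −0.59 to −0.31 log2 units, and in 6 of the 10 every A178D heart lay under every WT heart. The same held for the ratio of *Myh11* to 74.6% of all other genes tested, a comparison added after the ratios were seen, so that the count of 6 is not a result about the identity genes. An exact two-sided permutation test, the share of the 35 regroupings of the hearts with an absolute difference as large, gave the smallest p it can give, 0.0286, for *Kcnj8*, *Cspg4* and *Mcam*, or 3 of the 10, against 48.8% of the other genes with counts in every heart. For *Abcc9* and *Anpep* the exact p was 0.0571, for *Notch3* 0.0857, for *Rgs5*, *Pdgfrb* and *Vtn* 0.114, and for *Higd1b* 0.171. None of these values was adjusted over the 10 ratios, which share *Myh11* and its error. They also depend on how the 2 sides are counted: where the smaller tail was doubled, a version added after the values were seen, the smallest exact p possible was 0.0571 and 0 of the 10 ratios had a p under 0.05.

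For *Mcam*, the log2 ratio of *Myh11* was 1.17, 0.94 and 1.20 in WT and 0.31, 0.79, 0.82 and 0.53 in A178D hearts. Every WT heart was above every A178D heart. For *Rgs5*, the ratio was 0.29, −0.15 and −0.17 in WT and −0.81, −0.22, −0.19 and −0.19 in A178D hearts. Here WT replicates 3 and 4 lay next to A178D replicates 2, 3 and 4, and WT replicate 1 and A178D replicate 1 stood far from the rest. The mean difference was −0.34, and it was −0.192 without WT replicate 1 and −0.186 without A178D replicate 1. For *Notch3*, the ratio was 0.58, 0.41 and 0.91 in WT and 0.17, 0.42, 0.43 and 0.26 in A178D hearts, and the groups met at WT replicate 3. The mean difference for *Notch3* was −0.31 with all hearts and −0.176 without WT replicate 4. Without WT replicate 3 the groups did not overlap in any of the 10 ratios, and with 2 against 4 hearts the smallest exact p possible is 0.0667. The share of other genes without overlap in these hearts was not determined, so that this count is not a result about the identity genes.

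**Figure D3:**
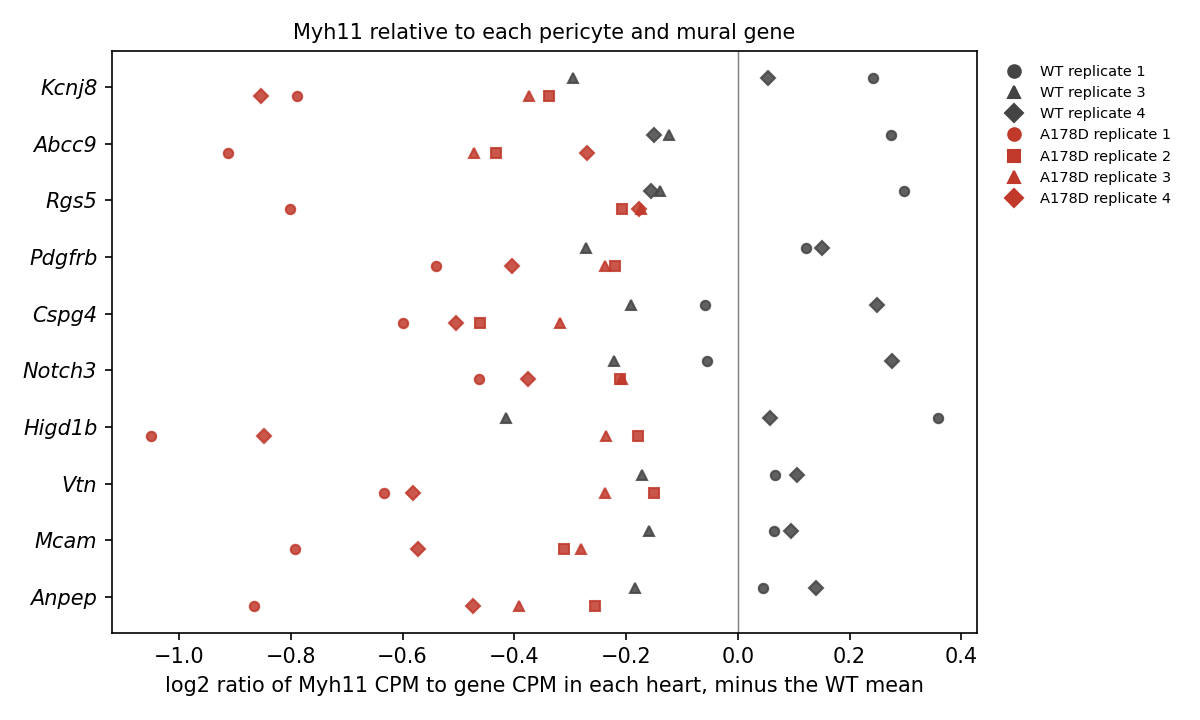
Log2 ratio of Myh11 CPM to the CPM of each pericyte and mural gene in each heart, minus the mean of the WT hearts. Grey marks are WT hearts and red marks A178D hearts, with 1 shape per replicate number. The A178D hearts lie lower on average for all 10 genes, and they do not overlap with WT hearts for 6 of them, against 74.6% of all other genes tested.

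A further list of 14 genes of mural cells was read in the same way, and 13 were tested. EdgeR called 0 of them, limma-voom 1 (*Rgs4*) and DESeq2 4 (*Rgs4*, *Gucy1a1*, *Pde5a* and *Steap4*), all lower, and with the length and GC offsets edgeR called 2 lower (*Gucy1a1* and *Steap4*). Over all genes, DESeq2 called 2.85% lower and edgeR with the offsets 2.04%. In edgeR 7 were lower and 0 higher at an unadjusted p under 0.05, against 8.81% of all genes tested being lower. The median log2 fold change of the list was −0.24. The most abundant per kilobase were *Ndufa4l2* (18.7 CPM per kilobase), a mitochondrial protein induced in hypoxia, *Colec11* (16.8), a collectin, and *Steap4* (13.8), a metalloreductase. *Steap4* was at 51.8, 48.5 and 45.8 CPM in WT and at 36.0, 40.8, 42.7 and 38.7 CPM in A178D hearts. All A178D hearts were under all WT hearts, with a log2 fold change of −0.30 ± 0.08 (adjusted p = 0.0732 with edgeR, 0.0242 with DESeq2 and 0.0436 with the offsets). *Ndufa4l2* had a log2 fold change of −0.10 ± 0.14, which was −0.23 with the length and GC offsets and −0.24 to −0.02 with single hearts left out, the lowest without A178D replicate 4. That of *Colec11* was 0.09 ± 0.11, 0.002 with the offsets and 0.01 to 0.15 with single hearts left out.

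Genes of endothelial cells and fibroblasts were read next. Of 12 endothelial genes edgeR called *Flt1*, a VEGF receptor, lower (log2 fold change −0.35, adjusted p = 0.02). DESeq2 called *Flt1* and, in the other direction, *Cldn5*, a tight junction protein (0.39, adjusted p = 0.0224 with DESeq2 and 0.0764 with edgeR). The list's median was −0.02, with a summed level of 1746, 1662 and 1564 CPM in WT and of 1573, 1578, 1648 and 1627 CPM in A178D hearts. *Eng* was its most abundant gene per kilobase (58.7), and no endothelial gene was at 0. The call of *Flt1* was lost without WT replicate 3 (adjusted p = 0.102), WT replicate 4 (0.0934), A178D replicate 1 (0.0584) or A178D replicate 2 (0.0617), with log2 fold changes from −0.36 to −0.33. It was also lost with the replicate number as a block (−0.34, adjusted p = 0.0728). Of 10 fibroblast genes edgeR called *Col3a1*, a fibrillar collagen, higher (0.62, adjusted p = 0.0317), 8 of the 10 were above 0, 4 were higher and 0 lower at an unadjusted p under 0.05, and the median was 0.16. DESeq2 also called *Col1a1* higher (0.45, adjusted p = 0.012, with edgeR 0.27 without WT replicate 4 and 0.58 without WT replicate 1, the 1 of 7 such fits that called it), and the length and GC offsets called *Col1a1*, *Col1a2* and *Col3a1*. Their summed level was 1267, 1313 and 1186 CPM in WT and 1526, 1433, 1378 and 1407 CPM in A178D hearts, with *Dcn* the most abundant per kilobase (99.3) and no gene at 0. The call of *Col3a1* was lost without WT replicate 3 (0.113), A178D replicate 1 (0.084), A178D replicate 2 (0.0672) or A178D replicate 3 (0.0712), with log2 fold changes from 0.60 to 0.67. Without WT replicate 4 its log2 fold change was 0.42. The part of these cells in the identity genes' values was not tested.

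In the other lists edgeR and limma-voom called 0 genes, and DESeq2 called 1, the macrophage gene *C1qb*, higher. Of 10 cardiomyocyte genes 2 were lower and 1 was higher at an unadjusted p under 0.05, with a median of −0.04. Of 10 macrophage genes, with *C1qa* the most abundant (51.6 CPM per kilobase), 3 were higher and 2 lower at that threshold, with a median of 0.20. Schwann cell genes had a median of 0.35 over 6 genes, none with an unadjusted p under 0.05, and *Cdh19* the most abundant at 1.66 CPM per kilobase. Mesothelial and adipocyte genes were near 0: *Muc16* had 0 counts in every heart, 7 of the 8 epicardial and mesothelial genes were under 1 CPM in all hearts (*Wt1* excepted, at 0.646 CPM per kilobase), and so were all 6 adipocyte genes, with *Cfd* the most abundant per kilobase (0.447).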

How the data were processed

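Left ventricles of 3 WT and 4 A178D mice were sequenced, 1 stranded poly(A) library each. The authors deposited raw counts per gene. The submitters' processing notes name bcl2fastq 2.18.0.12, HISAT2 2.1.0, SAMtools 1.6 and DESeq2 1.26.0, and the counting program and annotation are not given in the sources used here. A second table, scaled by size factors, was not used here. Identifiers were matched to GENCODE M21 (GRCm38), with 268 of 21257 entries left unnamed, and repeated entries were reduced to 1, leaving 20927. Of counts from 1 to 20, 17.6 to 20.3% per library were odd, so that both ends of a fragment appear to have been counted.

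The comparison used edgeR 4.0.16 in R 4.3.3 (TMM, glmQLFit, glmQLFTest, no covariate) on the 13894 genes that reached 10 counts in 3 or more libraries, with Benjamini-Hochberg adjusted p under 0.05 over all of them. After a ±, log2 fold changes carry their standard error and levels the SD. CPM per kilobase divides by annotated exon length. Each *Myh11* ratio was tested by an exact permutation of 3 against 4 hearts. Alternatives were DESeq2 1.42.0, its size factors in edgeR, limma-voom (limma 3.58.1), other filters on low counts, the replicate number as a block, length and GC offsets (mgcv 1.9.3), the table as deposited, halved counts and leaving out each library. Scripts were tested on simulated data.

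The members and lists were chosen with earlier results of these data known. Genes were named by a rule: every identity and tested contractile gene, of other pathway lists those called or the 3 most abundant per kilobase, of each cell type list the most abundant and any called, 5 genes most like the identity genes (1 of them is not reported here), and *Ttn*. *Notch1*, *Notch2*, *Notch4*, *Hey1*, *Hey2*, *Heyl*, *Nrarp*, *Abcc8*, *Ddx3y*, *Muc16*, *Pcsk7*, *Rgs4*, *Gucy1a1*, *Pde5a*, *Cldn5*, *Col1a1*, *Col1a2* and *C1qb* fall outside it and were chosen after their values were seen.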

Additional observations from a re-analysis of the deposited data

Results flagged for a closer look

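In 3 of the 50 groups of 4 A178D hearts examined, 1 heart stood far from the other 3, where chance flags about 1 in 20. The log2 ratio of *Myh11* to *Rgs5* was −0.81 in A178D replicate 1, while the other A178D hearts lay between −0.22 and −0.19. *Dcn* was at 646 CPM in A178D replicate 1, and at 555 to 562 CPM in the others. *Col3a1* was at 324 CPM in A178D replicate 2, and at 303 to 306 CPM in the others.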

How the results depend on the processing

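Over the alternatives, 159 of 160 log2 fold changes of the 10 identity genes lay under 0. The number of these genes called was 3 with DESeq2, 3 with length and GC offsets, 1 with no filter on low counts, 0 to 2 with single hearts left out and 0 otherwise. All genes called numbered 327 in the main fit, 665 with DESeq2, 488 with length and GC offsets and 436 with no filter on low counts. With single hearts left out they numbered 53 to 453, and contractile genes called 2 to 6. With single hearts left out, the medians lay between −0.29 and −0.18 for the identity genes and between −0.63 and −0.46 for the contractile genes, and 6 to 10 of the *Myh11* ratios did not overlap. The share of other genes without overlap was not determined with single hearts left out, so that these counts are not a result about the identity genes. With the smaller tail doubled, 0 of the ratios had an exact p under 0.05. The replicate number shared by the groups marked no pair: profiles with the same number had r of 0.003, −0.04 and −0.042. With it as a block, 271 genes, 0 identity genes and 5 contractile genes were called. The calls of *Flt1* (log2 fold change −0.338, adjusted p = 0.0728), *Cnn1* (−0.855, 0.0617) and *Myl9* (−0.515, 0.0634) were lost. Without the block these log2 fold changes were −0.347, −0.819 and −0.492. Sign changes were seen in genes near 0. *Kcnj11* was 0.003 with limma-voom, 0.001 with the block and −0.092 to 0.097 with single hearts left out, *Dcn* −0.001 with no filter and −0.067 to 0.058, *Pdgfra* 0.004 with the offsets and −0.11 to 0.032, *Pdgfb* −0.118 to 0.055, *Higd1b* −0.189 to 0.047 and *Synpo2* −0.007 to 0.119. The causes were not tested. Both ends of fragments appear to have been counted, and halved counts gave 335 genes called. The effect on low values was not tested.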
